A study of Mus musculus with 9 samples.

Results

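The genes of the endoplasmic reticulum (ER) stress response were followed in the PVN (paraventricular nucleus), a cell group of the hypothalamus. The group was chosen by function and holds 37 genes: 11 ER chaperones and co-chaperones, 4 protein disulfide isomerases, 5 stress sensors and transcription factors, 8 genes of the ATF4 arm, and 9 genes of ER-associated degradation and translocation. All 37 were found in the count table of 27179 genes, and all 37 were among the 17344 genes with enough counts to test. RNA was sequenced from tissue punches of the PVN of 9 male wild type C57BL/6 mice (C57BL/6J in the paper's methods), with 3 mice per group (Control, HFD and HFD+Mino). The Control diet drew 16% of calories from fat and the high fat diet (HFD and HFD+Mino) 60%, and both were fed for 12 weeks. During the final 6 weeks HFD+Mino mice drank water with minocycline, an antibiotic that also dampens inflammation, at a dose of 40 mg/kg/day, so that HFD+Mino and HFD shared the diet and differed in the drug. The labels give an age of 35 days. Per the paper's methods this is the age before the 12 weeks of feeding, not that at tissue collection. No group carried a transgene or an engineered allele. A punch holds every cell type of the region, so that fewer cells of a type and less RNA per cell cannot be told apart in any value given here.

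The ER folds the proteins that a cell secretes or places in its membranes. When unfolded protein builds up, 3 sensors in the ER membrane respond: IRE1 (gene Ern1) splices the Xbp1 mRNA, PERK (Eif2ak3) slows translation and favours the translation of ATF4, and ATF6 is cut in the Golgi to release a transcription factor. Together these arms raise chaperones, oxidative folding enzymes and the machinery that removes misfolded proteins to the proteasome, and under lasting stress ATF4 induces CHOP (Ddit3). Neuroendocrine neurons of the PVN secrete peptide hormones such as vasopressin and oxytocin and carry a large load of protein through the ER. Much of the response is set by splicing, phosphorylation and cleavage, which gene counts do not show.

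Total counts ran from 17728590 to 42326213 per sample, and some libraries stood apart from the rest in their markers. The 9 markers of PVN neuroendocrine neurons summed to between 1405 and 5604 CPM (counts per 1e6 of the library total, scaled by the trimmed mean of M values, TMM) in 7 samples, and in HFD+Mino replicates 1 and 2 to 39630 and 34950 CPM. In the same pair of libraries Avp, the vasopressin gene, reached 28049 and 22180 CPM, while HFD+Mino replicate 3 had 1218 CPM. Avp and Oxt, the oxytocin gene (8907 and 8696 CPM), made up most of both sums. Crh and Trh were also higher in both libraries than in any other sample. Sst, Sim1, Otp, Pou3f2 and Scg2 were not, with Otp at 0.616 and 0.371 CPM, beside 0.971 to 1.15 CPM in HFD. Control replicate 1 held only 6 counts of Avp and 31 of Oxt, so that these transcripts were almost absent from a library labelled PVN. Trh, Sim1 and Otp were also lowest in that library, at 221, 31 and 0 counts. Crh, Sst, Pou3f2 and Scg2 were present there, at 829, 4116, 458 and 50892 counts, and Crh lay above Control replicate 2 in CPM. The 6 oligodendrocyte markers summed to 29220 CPM in that library and to between 2221 and 6886 CPM in the other samples. None of the marker genes of these lists, nor of the lists for other neurons, astrocytes, oligodendrocyte precursors, microglia, endothelium, choroid plexus and ependyma, was at 0 in every sample. Rn45s, a ribosomal RNA precursor, took from 0.35% to 0.43% of the counts in HFD and at most 0.113% in the other groups. With Rn45s and the mitochondrial genes left out of the table, the numbers of members called were as in the full table in all 4 tests. The part of the marker differences in the results was not tested. Values without the libraries that stood apart are given for some of the members they change, not for all.

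Few members passed the threshold of an FDR under 0.01 and a change of at least 1.5-fold (edgeR's quasi-likelihood test, Benjamini-Hochberg adjustment over all 17344 genes). In HFD+Mino against HFD, Hyou1, Atf6 and Ppp1r15b fell, and no member rose. Those 3 of 37 members stand beside 4.15% of all tested genes called in that comparison, 2.16% in the lower direction. An unadjusted p under 0.05 was reached there by 18 members, which is 48.6% of them, against 41.3% of all genes. No member was called in HFD against Control, where 1.74% of all genes were, and 8 members had an unadjusted p under 0.05, which is 21.6% of the members and 20.5% of all genes. In the 3-way test, which asks for a difference among the 3 groups with HFD as the highest or lowest and at least 1.5-fold from their mean, 1 member passed, Ppp1r15b, beside 2.13% of all genes (0.917% with HFD highest). In HFD+Mino against Control 0 genes of any kind were called (percent called 0), and 8 members had an unadjusted p under 0.05 (21.6%, against 21.3% of all genes). DESeq2 called 3 members in HFD against Control (Hyou1, Atf6 and Ppp1r15b, all higher), beside 6.84% of all genes, and 2 in HFD+Mino against Control (Manf and Sec61b, both higher), beside 1.56%. The comparisons share samples, HFD being part of both HFD against Control and HFD+Mino against HFD, and their values are set side by side without a test between them.

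The members as a whole sat near the level of all genes in every comparison. Their median log2 fold change was 0.09 in HFD against Control, against 0.00 for all tested genes, with 25 of 37 above 0. It was 0.01 in HFD+Mino against HFD, as for all genes, with 19 of 37 above 0, and 0.07 against -0.02 in HFD+Mino against Control. In HFD, 12 members lay above all 3 Control samples (32.4% of the members, against 19.7% of all genes) and 4 lay below them (10.8%, against 16%). With HFD+Mino set against HFD, 8 members lay above all HFD samples (21.6%, against 23.3%) and 9 below (24.3%, against 23.5%). With HFD+Mino set against Control, 3 lay above (8.11%, against 8.93%) and 2 below (5.41%, against 10.1%). All 3 HFD samples lay above the 6 other samples for 7 members (Hyou1, Pdia4, P4hb, Ern1, Atf6, Ppp1r15b and Sel1l, 18.9%, against 13.4% of all genes) and below them for Atf4 and Herpud1 (5.41%, against 9.62%). The counts of all 37 members summed to 4507, 5162 and 5125 CPM in Control, 5329, 5472 and 5802 CPM in HFD, and 5386, 6623 and 4773 CPM in HFD+Mino. Every HFD sum lay above every Control sum, and the HFD+Mino sums ran from within the Control range to above the HFD range. HFD likewise lay above Control in the sums of the 11 chaperones, at 2241 to 2727 CPM in Control and 2963 to 3219 CPM in HFD, and of the 4 isomerases, at 899 to 1070 CPM and 1116 to 1144 CPM. In the other roles the sums overlapped. Control and HFD were at 301 to 397 and 301 to 367 CPM for the sensors and transcription factors, and at 340 to 480 and 291 to 374 CPM for the ATF4 arm. For degradation and translocation they were at 586 to 655 and 631 to 709 CPM. No such sums were formed from genes outside the group. These sums are carried by the most abundant members, and the heat map gives each member by mouse.

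**Figure D1:**
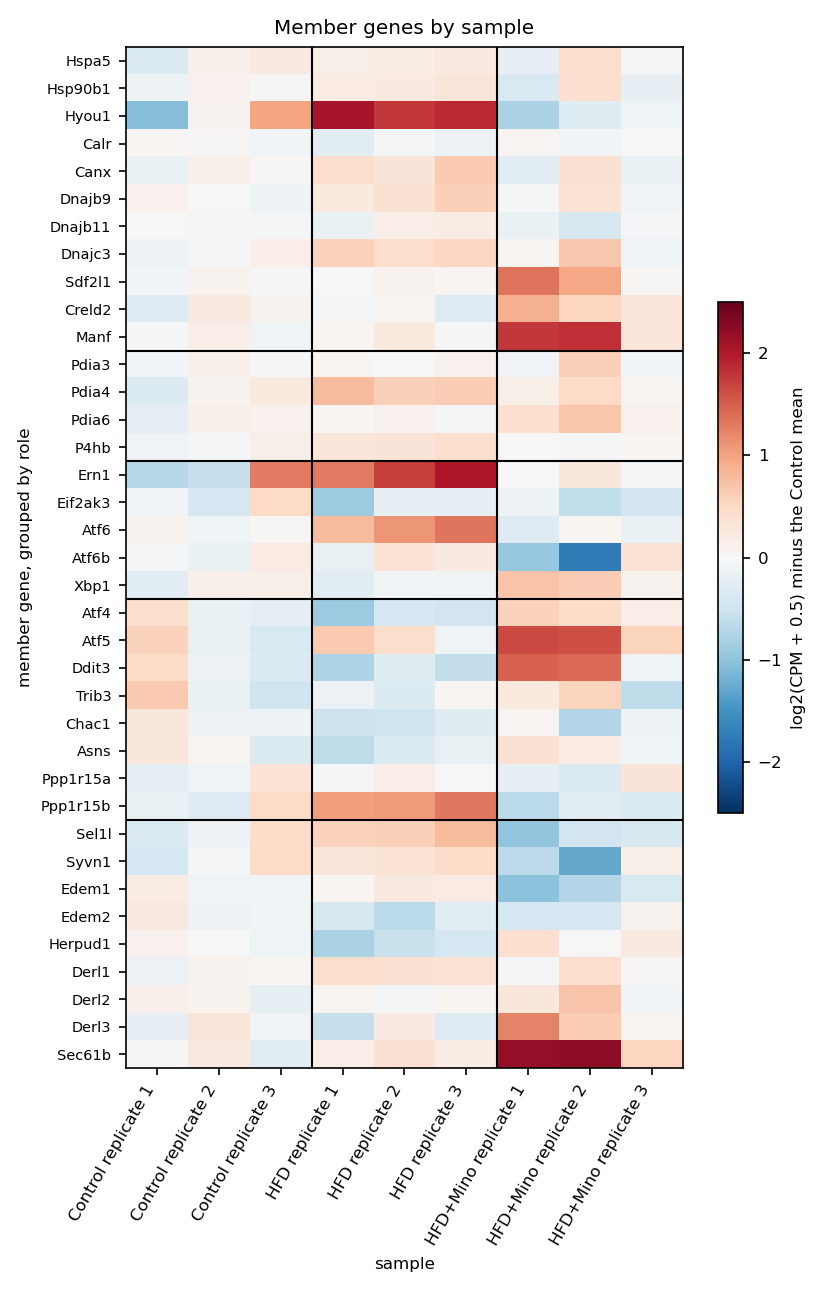
Level of each member in each mouse as log2(CPM + 0.5) minus the mean of the 3 Control samples (colour scale from -2.5 to 2.5), with members in rows by role and samples in columns by group. Hyou1, Ern1, Atf6 and Ppp1r15b were higher in all 3 HFD samples than in any other sample, while Manf, Sec61b, Ddit3 and Sdf2l1 were far higher in HFD+Mino replicates 1 and 2 than in replicate 3.

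Among the ER chaperones, Hyou1 stood apart from the rest. Hspa5, which encodes BiP, the main ER chaperone and the classical marker of ER stress, was at 609, 858 and 913 CPM in Control replicates 1 to 3, at 869, 887 and 916 CPM in HFD, and at 681, 1067 and 755 CPM in HFD+Mino. The groups overlapped, and the HFD samples were the closest to each other. The log2 fold change was 0.17 ± 0.24 (SE) in HFD against Control (FDR = 0.733) and -0.09 ± 0.24 in HFD+Mino against HFD (FDR = 0.797). These values do not show that the levels were equal, since a log2 change of 0.24 is only 1 SE. Hspa5 was also the most abundant member per length, at 188 RPKM (CPM divided by the kilobases of exon) in Control, before Pdia3 at 149, Canx at 127 and Hsp90b1 at 122.

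Hyou1 encodes ORP150, a large chaperone of the HSP110 family that acts as a nucleotide exchange factor for BiP. It was at 8.84, 20.4 and 38.4 CPM in Control, at 81.7, 66.4 and 71.5 CPM in HFD, and at 10.9, 15.4 and 17.7 CPM in HFD+Mino (means 22.5 ± 14.9, 73.2 ± 7.75 and 14.7 ± 3.47 CPM, SD, n = 3). Every HFD sample lay above every other sample, and Control ranged more widely than the other groups. In HFD+Mino against HFD Hyou1 fell by 2.32 on the log2 scale (SE 0.44, FDR = 0.00846, edgeR). In HFD against Control the log2 fold change was 1.70 ± 0.43, with an FDR of 0.0416 that misses the threshold, and in HFD+Mino against Control it was -0.62 ± 0.42 (FDR = 0.402). Without Control replicate 3, in which Hyou1 was highest among the Control samples, the log2 fold change in HFD against Control was 2.32 and was called (FDR = 0.00792). Without Control replicate 1, the library almost without Avp, it was 1.31 (FDR = 0.0631), and without any other sample it ran from 1.62 to 1.76 and was not called. Hyou1 was called in HFD+Mino against HFD without Control replicate 1 (-2.32, FDR = 0.00176) and was not called without HFD+Mino replicate 1 (-2.14, FDR = 0.0454) or replicate 2 (-2.35, FDR = 0.0236).

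The other 9 chaperones and co-chaperones gave small differences in HFD against Control, none above 0.51 on the log2 scale. Canx (calnexin) and Dnajc3 (p58IPK, a BiP co-chaperone) were at means of 594 ± 58.6 and 72.9 ± 7.80 CPM in Control and 828 ± 95.5 and 104 ± 4.93 CPM in HFD (SD, n = 3), with FDRs of 0.275 and 0.246. Calr (calreticulin), the lectin partner of calnexin, had means of 280 ± 12.2, 252 ± 20.8 and 279 ± 14.7 CPM in Control, HFD and HFD+Mino. Hsp90b1 (GRP94), Dnajb9 (ERdj4) and Dnajb11 (ERdj3) had log2 fold changes of 0.24, 0.41 and 0.07 in HFD against Control and of -0.26, -0.32 and -0.26 in HFD+Mino against HFD, with FDRs of at least 0.259.

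Manf, Creld2 and Sdf2l1, small ER proteins that are typically strongly induced by ER stress, followed another pattern. Manf, a secreted neurotrophic factor held in the ER by BiP, was at 58.8, 68.0 and 56.0 CPM in Control, 63.0, 71.9 and 59.8 CPM in HFD, and 208, 217 and 74.7 CPM in HFD+Mino. Control and HFD overlapped, all HFD+Mino samples lay above both, and replicate 3 was close to them. The log2 fold change was 1.36 ± 0.34 in HFD+Mino against HFD (FDR = 0.0176) and 1.45 ± 0.34 in HFD+Mino against Control (FDR = 0.132). Creld2, a disulfide isomerase-like protein, gave 0.69 ± 0.24 in HFD+Mino against HFD (FDR = 0.0490). Sdf2l1, a cofactor of ERdj3 and ERdj6, had 99.6, 75.9 and 39.1 CPM in the HFD+Mino samples, beside 36.5 to 41.2 CPM in the Control and HFD samples. The replicates that were high for these genes were those with 39630 and 34950 CPM of neuroendocrine markers, mostly Avp and Oxt. The log2 fold change of Manf against Control was 1.80 and called without HFD+Mino replicate 3 (FDR = 0.00336), and 1.26 and 1.21 and not called without replicates 1 and 2 (FDR = 0.419 and 0.280). Manf, Creld2 and Sdf2l1 were singled out after their values were seen, as were Canx, Dnajc3, Calr, Hsp90b1, Dnajb9 and Dnajb11.

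**Figure D2:**
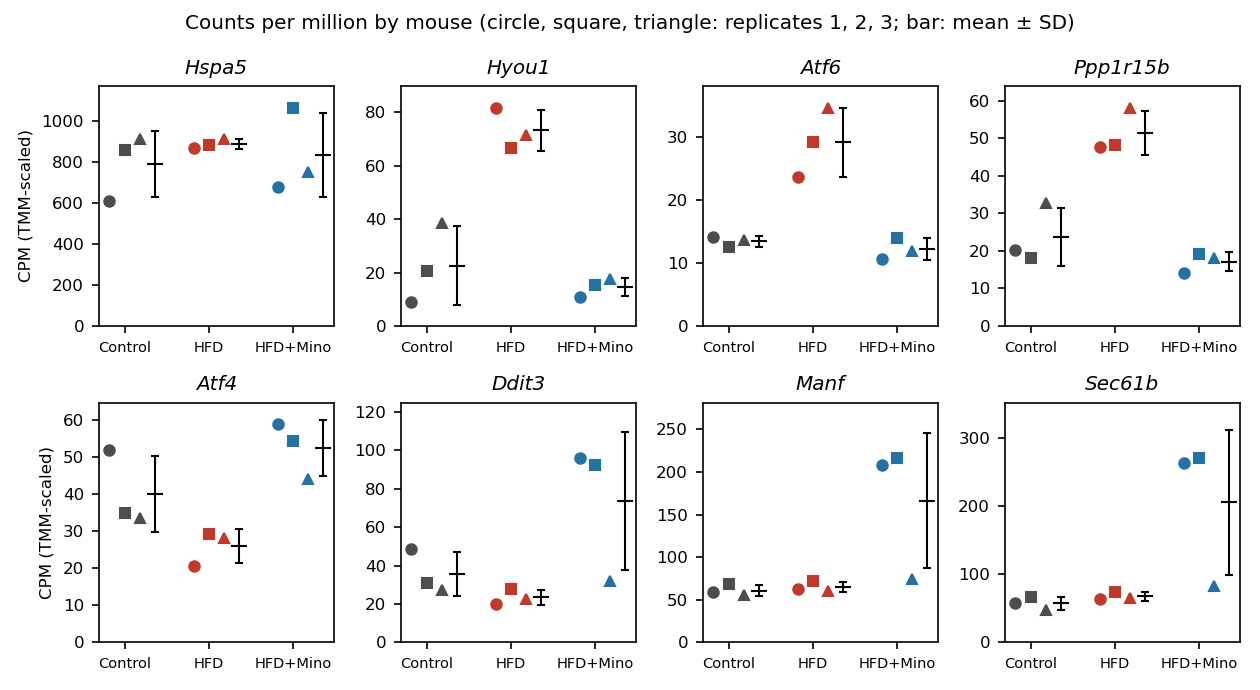
CPM of 8 members in each mouse (circles, squares and triangles are replicates 1, 2 and 3; horizontal bars and whiskers are the mean and SD of 3 mice; each axis starts at 0). Hyou1, Atf6 and Ppp1r15b were highest in the 3 HFD mice, Hspa5 overlapped between the groups, and Ddit3, Manf and Sec61b in HFD+Mino were high in replicates 1 and 2 and near the other groups in replicate 3.

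The sequences below show the element through which the ATF6 and XBP1 factors are known to act on chaperone genes. The ER stress response element is CCAAT, any 9 bases, and CCACG, searched on both strands from 250 bases before to 50 bases after the start of each RefSeq promoter (GRCm38.p6). Promoters were matched for 32 of the 37 members, and Atf6, Derl1, Hyou1, Manf and Ppp1r15b were not matched. Hspa5 is shown for its whole upstream window because it is the reference gene of the response, and Hsp90b1 because it holds 2 elements in opposite directions. Creld2 is shown because it was the only gene with the element that reached an FDR under 0.05 in a pairwise comparison. Capitals mark the element, read on the strand of the gene. An element in the reverse direction reads CGTGG, 9 bases, ATTGG.
Hspa5, chr2:34771840-34772089, plus strand: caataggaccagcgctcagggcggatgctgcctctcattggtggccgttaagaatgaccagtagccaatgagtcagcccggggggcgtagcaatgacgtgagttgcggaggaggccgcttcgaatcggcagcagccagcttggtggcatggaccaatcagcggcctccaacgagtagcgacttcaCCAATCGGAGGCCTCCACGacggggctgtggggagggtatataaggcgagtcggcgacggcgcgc
Hsp90b1, first element, chr10:86705618-86705676, minus strand: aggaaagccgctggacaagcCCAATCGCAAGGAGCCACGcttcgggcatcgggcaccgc
Hsp90b1, second element, chr10:86705513-86705571, minus strand: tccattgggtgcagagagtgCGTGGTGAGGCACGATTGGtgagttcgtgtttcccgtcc
Creld2, chr15:88819500-88819558, plus strand: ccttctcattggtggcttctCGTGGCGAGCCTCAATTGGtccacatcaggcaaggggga

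The element was found in 9 members, Calr, Canx, Creld2, Derl3, Dnajc3, Hsp90b1, Hspa5, Pdia6 and Syvn1, and in 0.1369% of the 27025 genes with a promoter in the table. With the last base free it was found in 13 members and in 0.4292% of genes. The related element II, ATTGG, any 1 base and CCACG, was found in Dnajb11 and Herpud1, and in 0.0444% of genes. TGACGTGG, the core of the unfolded protein response element, and TGATGNAAT, a C/EBP-ATF element, were in none of the 32 member promoters, and in 0.7142% and 1.084% of genes. None of the 9 members with the ER stress response element was called in a pairwise comparison. Their median log2 fold change was 0.17 in HFD against Control, -0.09 in HFD+Mino against HFD and 0.07 in HFD+Mino against Control, beside 0.00, 0.01 and -0.02 for all tested genes. The presence of the element is a description of these promoters and was not set against the changes by a test.

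No protein disulfide isomerase, the enzymes that form and rearrange disulfide bonds in the ER, was called in any comparison of the main fit. Pdia4 (ERp72) had the largest difference in HFD against Control of the 4, with means of 120 ± 23.8, 189 ± 14.3 and 141 ± 23.7 CPM in Control, HFD and HFD+Mino (SD, n = 3) and a log2 fold change of 0.65 ± 0.22 (FDR = 0.118). All 3 HFD samples of Pdia4 lay above the 6 other samples, and the same held for P4hb, the isomerase that is also a subunit of prolyl 4-hydroxylase, at 154, 157 and 167 CPM in HFD and between 116 and 139 CPM elsewhere. Pdia3 (ERp57) and Pdia6 differed by 0.05 and 0.04 in HFD against Control. In HFD+Mino against HFD the values of the 4 ran from -0.42 to 0.38. These genes were described after their values were seen.

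Of the 5 sensors and transcription factors, only Atf6 was called. It encodes the sensor that is cut to release a factor for chaperone genes. It was at 14.2, 12.5 and 13.6 CPM in Control, 23.6, 29.2 and 34.6 CPM in HFD, and 10.6, 14 and 11.9 CPM in HFD+Mino (means 13.4 ± 0.868, 29.1 ± 5.47 and 12.2 ± 1.69 CPM, SD, n = 3). The HFD samples did not overlap with either other group, and Control and HFD+Mino overlapped. Atf6 fell by 1.26 on the log2 scale in HFD+Mino against HFD (SE 0.24, FDR = 0.00846, edgeR). In HFD against Control the log2 fold change was 1.12 ± 0.24 (FDR = 0.0197), and in HFD+Mino against Control -0.14 ± 0.24 (FDR = 0.758). Atf6 was one of the longest members, with 9231 nt of exon, and with a trend on exon length removed from each sample its change in HFD+Mino against HFD was -0.70 and was not called (FDR = 0.0490).

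Ern1, the IRE1 sensor and nuclease, was a low gene with 30 to 316 counts per sample. It was at 0.745, 0.875 and 4.53 CPM in Control, 4.57, 6.29 and 7.87 CPM in HFD, and 1.54, 2.01 and 1.48 CPM in HFD+Mino. Control replicate 3 lay just under the lowest HFD sample, far from the other Control samples. In HFD against Control it gave 1.61 ± 0.63 (FDR = 0.175) and -1.90 ± 0.64 in HFD+Mino against HFD (FDR = 0.0461). Without Control replicate 3 the first was 2.94 and was called (FDR = 0.00731), and without Control replicates 1 and 2 it was 1.21 and 1.26 (FDR = 0.430 and 0.424). Eif2ak3, the PERK kinase, gave -0.47 ± 0.32 in HFD against Control and 0.01 ± 0.32 in HFD+Mino against HFD. Atf6b, the ATF6 paralog, was at 16.7, 9.29 and 42.4 CPM in HFD+Mino, a spread that covered both other groups (28.8 to 41.6 CPM over their 6 samples). Ern1, Eif2ak3 and Atf6b were singled out after their values were seen.

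Xbp1, the transcription factor whose mRNA IRE1 splices, was at 239, 317 and 318 CPM in Control, 236, 277 and 270 CPM in HFD, and 470.5, 444 and 309 CPM in HFD+Mino. All HFD+Mino samples lay above all HFD samples, and replicate 3 lay within the Control range. Its log2 fold change was -0.16 ± 0.23 in HFD against Control (FDR = 0.729), 0.65 ± 0.23 in HFD+Mino against HFD (FDR = 0.0549) and 0.49 ± 0.23 in HFD+Mino against Control (FDR = 0.244). Xbp1 thus passed no threshold. These counts do not separate spliced from unspliced Xbp1.

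In the ATF4 arm, Ppp1r15b differed in the opposite direction to Atf4 and Ddit3. Ppp1r15b encodes CReP, the constitutive subunit that directs a phosphatase to eIF2α and restores translation. It was at 20.2, 18.2 and 32.6 CPM in Control, 47.7, 48.2 and 58.2 CPM in HFD, and 14.2, 19.1 and 18.1 CPM in HFD+Mino (means 23.7 ± 7.83, 51.3 ± 5.90 and 17.1 ± 2.54 CPM, SD, n = 3). All HFD samples lay above all others. Ppp1r15b was called in the 3-way test, where the log2 level of HFD exceeded the average over the groups by 0.90 (FDR = 0.00947). It fell by 1.58 in HFD+Mino against HFD (SE 0.27, FDR = 0.00597, edgeR), and its log2 fold change was 1.12 ± 0.26 in HFD against Control (FDR = 0.0322) and -0.47 ± 0.26 in HFD+Mino against Control (FDR = 0.320). Ppp1r15b shares 640 of its 5594 nt of exon with Gm26616 on the opposite strand, and a setting for strand is not given in the sources used here, so reads of the pair cannot be told apart. The same limit holds for other members with smaller overlaps, the largest being in Eif2ak3 (485 of 6026 nt) and Hsp90b1 (415 of 4032 nt). Ppp1r15a, which encodes GADD34, the stress-induced counterpart of CReP, had means of 21.8 ± 4.87, 22.4 ± 1.67 and 20.7 ± 5.52 CPM in Control, HFD and HFD+Mino.

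Atf4, the transcription factor at the centre of this arm, was at 51.8, 34.8 and 33.4 CPM in Control, 20.6, 29.3 and 28.1 CPM in HFD, and 58.8, 54.2 and 44.1 CPM in HFD+Mino. HFD lay below all other samples, and the highest Control value was that of replicate 1. In HFD against Control it gave a log2 fold change of -0.62 ± 0.25 (FDR = 0.187), 1.01 ± 0.25 in HFD+Mino against HFD (FDR = 0.0170) and 0.39 ± 0.25 in HFD+Mino against Control (FDR = 0.376). Atf4 was called in HFD+Mino against HFD by DESeq2 and by the likelihood ratio test of edgeR, not by the quasi-likelihood test.

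Ddit3, which encodes CHOP, the factor that ATF4 induces under lasting stress, was at 48.5, 31.1 and 27.0 CPM in Control, 19.9, 27.7 and 22.7 CPM in HFD, and 96.0, 92.1 and 31.9 CPM in HFD+Mino. HFD+Mino replicate 3 lay within the Control range and the other replicates of that group far above it. The log2 fold change was -0.60 ± 0.38 in HFD against Control (FDR = 0.405), 1.65 ± 0.39 in HFD+Mino against HFD (FDR = 0.0150) and 1.04 ± 0.39 in HFD+Mino against Control (FDR = 0.170). Without HFD+Mino replicate 3 the last was 1.40 and was called (FDR = 0.00768), and without replicates 1 and 2 it was 0.80 and 0.85 and was not (FDR = 0.465 and 0.352). Atf5, a related factor, was a low gene and was likewise highest in HFD+Mino replicates 1 and 2, with 3.83, 3.68 and 1.53 CPM in HFD+Mino and 0.559 to 1.66 CPM in the other groups.

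Asns, Chac1 and Trib3, further targets of ATF4, passed no threshold. Asns (asparagine synthetase) had means of 259 ± 56.8, 197 ± 30.2 and 288 ± 48.0 CPM in Control, HFD and HFD+Mino, and a log2 fold change of 0.55 ± 0.24 in HFD+Mino against HFD (FDR = 0.104). Chac1, an enzyme that degrades glutathione, gave 0.22 ± 0.26 in the same comparison. Trib3, a pseudokinase induced by ATF4 and CHOP, was among the lowest members, with 13 to 64 counts per sample, and gave 0.42 ± 0.71. Over the 8 genes of this arm, the median log2 fold change was -0.37 in HFD against Control and 0.49 in HFD+Mino against HFD. For all tested genes it was 0.00 and 0.01. Of the 8, 5 were negative in the first comparison and 6 positive in the second. With the trend on exon length removed, Chac1 and Trib3 turned to -0.53 and -0.15 in HFD+Mino against HFD, while Atf4, Atf5, Ddit3 and Asns stayed above 0. Asns, Chac1, Trib3, Atf5 and Ppp1r15a were described after their values were seen.

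**Figure D3:**
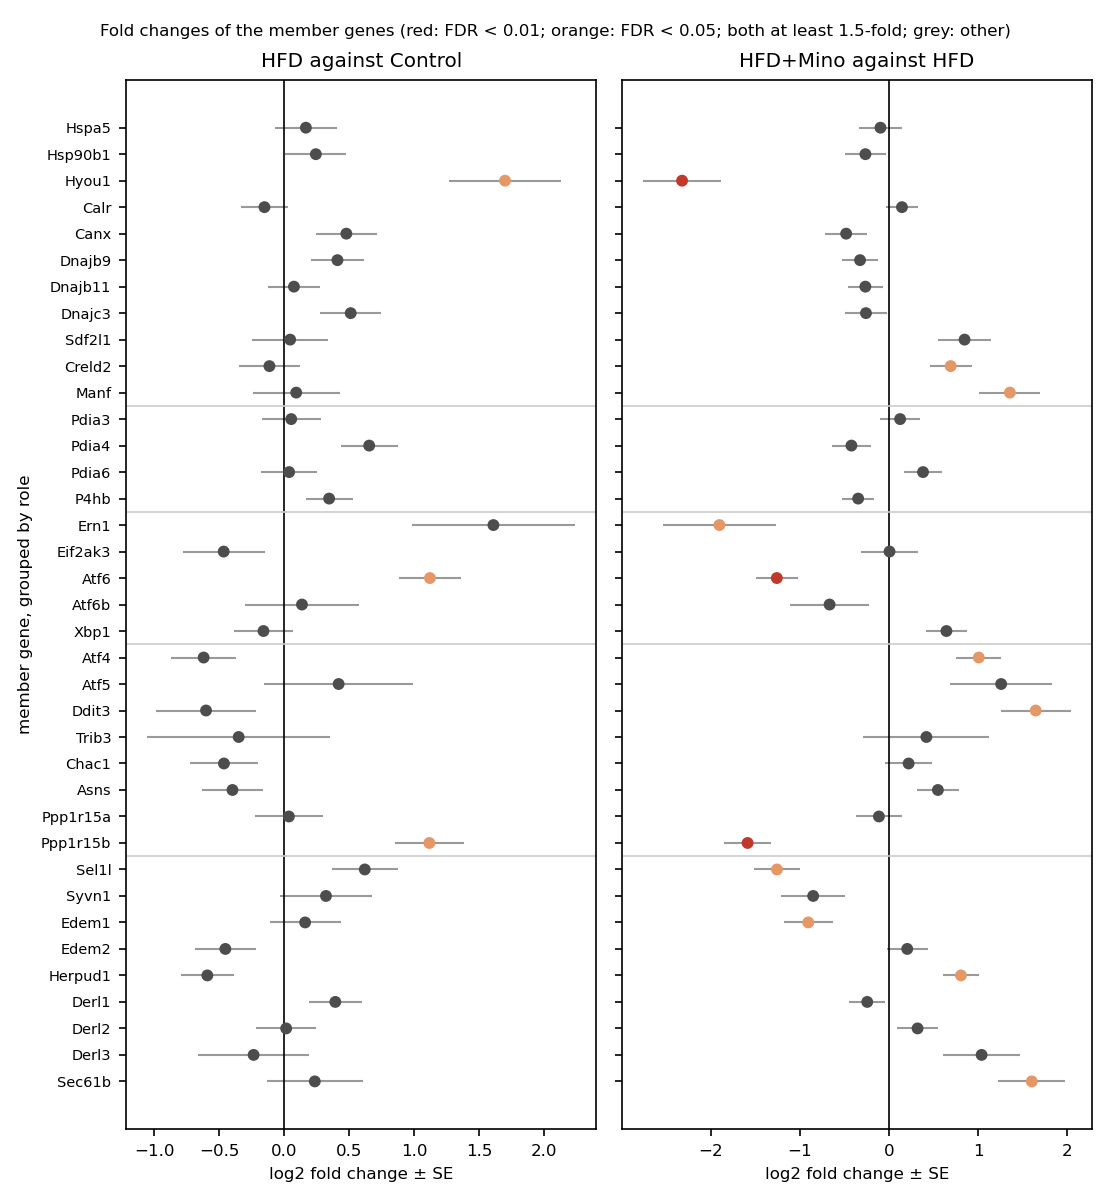
Log2 fold change ± SE of each of the 37 members in HFD against Control and in HFD+Mino against HFD (edgeR; red points passed an FDR under 0.01, orange points an FDR under 0.05, both with at least 1.5-fold; grey points passed neither). Hyou1, Atf6 and Ppp1r15b are the 3 red points, all below 0 in HFD+Mino against HFD, and the HFD samples enter both panels.

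No gene of ER-associated degradation and translocation was called in the main fit, but several lay near the threshold. Sel1l, the adaptor of the HRD1 ubiquitin ligase, was at 137, 161 and 240.3 CPM in Control, 262, 263 and 302 CPM in HFD, and 87.8, 126 and 133 CPM in HFD+Mino, and the 3 groups did not overlap. Its log2 fold change was -1.26 ± 0.26 in HFD+Mino against HFD, with an FDR of 0.0105 just outside the threshold, and 0.62 ± 0.26 in HFD against Control (FDR = 0.201). Syvn1, which encodes HRD1 itself, gave -0.85 ± 0.36 in HFD+Mino against HFD (FDR = 0.0957), with 21.7, 13.9 and 38.3 CPM in HFD+Mino. Edem1, a mannosidase-like protein that passes glycoproteins to degradation, was below all other samples in HFD+Mino (4.45 to 7.16 CPM, against 8.75 to 11.2 CPM) and gave -0.90 ± 0.28 against HFD (FDR = 0.0338).

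Herpud1 and Sec61b lay on the other side. Herpud1, an ER membrane protein that organises the HRD1 complex and is a common marker of ER stress, was at 216, 198 and 186 CPM in Control, 115, 136 and 147 CPM in HFD, and 265, 198 and 234 CPM in HFD+Mino. HFD lay below all other samples, with a log2 fold change of -0.59 ± 0.20 against Control (FDR = 0.122) and of 0.81 ± 0.20 for HFD+Mino against HFD (FDR = 0.0174). Sec61b, a subunit of the channel through which new proteins enter the ER, was at 57.9, 66.7 and 47.5 CPM in Control, 63.6, 74.6 and 64.4 CPM in HFD, and 263, 270.4 and 82.1 CPM in HFD+Mino. As for Manf, replicates 1 and 2 of HFD+Mino were far above the rest and replicate 3 was close to it. The log2 fold change of Sec61b was 1.60 ± 0.38 in HFD+Mino against HFD (FDR = 0.0147) and 1.84 ± 0.38 in HFD+Mino against Control (FDR = 0.132), and without HFD+Mino replicate 3 the latter was 2.21 and was called (FDR = 0.00265). Without replicates 1 and 2 it was 1.62 and 1.59 and was not called (FDR = 0.419 and 0.280).

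The derlins and Edem2 passed no threshold in the main fit. Derl1 and Derl2, candidate channels for the export of misfolded proteins, gave 0.39 ± 0.20 and 0.01 ± 0.23 in HFD against Control and -0.24 ± 0.20 and 0.32 ± 0.23 in HFD+Mino against HFD. Derl3 had only 35 to 216 counts per sample and gave 1.04 ± 0.43 in HFD+Mino against HFD (FDR = 0.0939). Edem2 gave -0.45 ± 0.23 in HFD against Control (FDR = 0.299). The genes of degradation and translocation were described after their values were seen.

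At an FDR under 0.05 the members split evenly in HFD+Mino against HFD. There 12 of 37 passed, beside 27.4% of all genes, with 6 higher (Creld2, Manf, Atf4, Ddit3, Herpud1 and Sec61b) and 6 lower (Hyou1, Ern1, Atf6, Ppp1r15b, Sel1l and Edem1). Among all genes 14.6% were higher and 12.9% lower. In HFD against Control 3 passed, all higher (Hyou1, Atf6 and Ppp1r15b), beside 5.77% of all genes, of which 2.57% were higher. In the 3-way test 4 were higher (Hyou1, Atf6, Ppp1r15b and Sel1l) and Ddit3 was lower, beside 13% of all genes, 6.37% higher and 6.65% lower.

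Among the members with an FDR under 0.05 in HFD+Mino against HFD, those that were higher in HFD had long exons and those that were higher in HFD+Mino mostly had short ones, and a trend with length ran through all genes. Exon length here is the union of annotated exons of a gene. Hyou1, Ern1, Atf6, Sel1l and Ppp1r15b had 7230, 8173, 9231, 8555 and 5594 nt, while Sec61b, Creld2, Ddit3, Herpud1 and Atf4 had 1271, 1366, 1713, 2333 and 2358 nt. Tested genes with a known length were split into 4 bins of equal size. Over all of them the median log2 fold change in HFD against Control went from -0.25 in the bin of shortest genes through -0.09 and 0.11 to 0.36 in the longest. For the 12, 14, 6 and 5 members in those bins it was -0.17, 0.06, 0.40 and 1.12. In HFD+Mino against HFD the medians over all genes were 0.77, 0.01, -0.34 and -0.56, and those of the members 0.83, 0.02, -0.66 and -1.26. The members' order by length was that of the whole table, with a wider range. Some members went against it. Derl2, with 8049 nt, gave 0.01 and 0.32, and Manf, with 3524 nt, gave 0.09 and 1.36. Pdia4, Dnajb9, P4hb and Derl1, whose HFD samples all lay above Control, had only 2399, 2549, 2861 and 3328 nt. The rest of the 12 members above Control were longer, from 4032 nt (Hsp90b1) to 9231 nt (Atf6). The 4 below Control (Atf4, Chac1, Edem2 and Herpud1) had 1637 to 3463 nt.

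**Figure D4:**
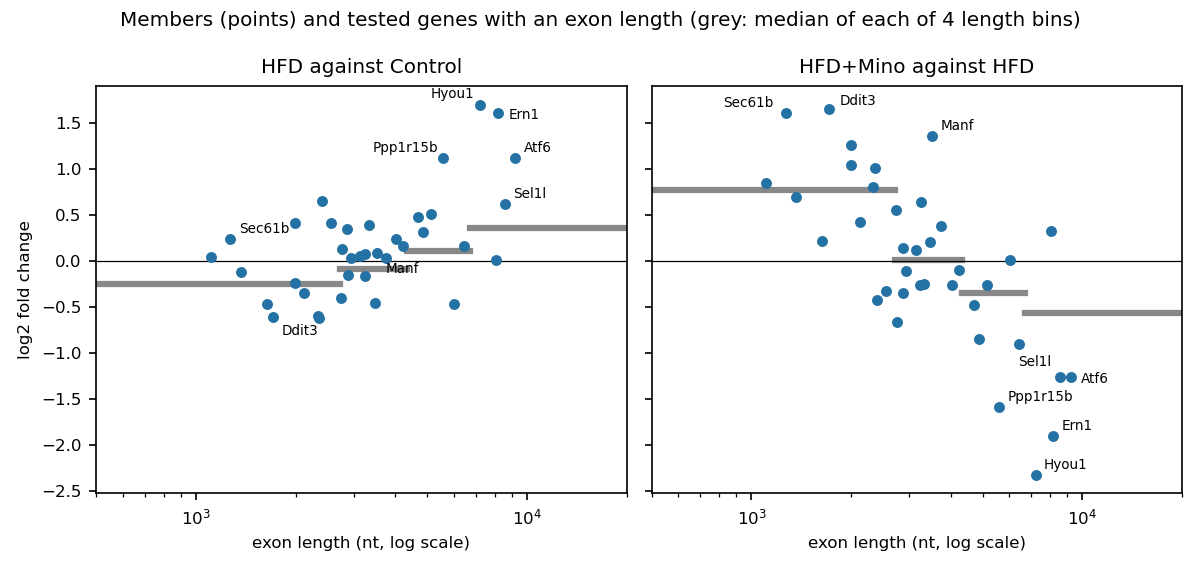
Log2 fold change of the 37 members (points) against exon length in nt on a log axis from 500 to 20000, for HFD against Control and HFD+Mino against HFD, with the median of all tested genes in each of 4 length bins as grey bars (cut at the axis limits). The grey medians climb from -0.25 to 0.36 with length in HFD against Control and drop from 0.77 to -0.56 in HFD+Mino against HFD, and the members spread around them.

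With a smooth trend on exon length removed from each sample, Ppp1r15b was the only member still called in HFD+Mino against HFD, with a log2 fold change of -1.20 (FDR = 0.00996), beside 2.68% of all genes. Hyou1 kept a change of -1.86 and missed the threshold (FDR = 0.0131), and Creld2 turned from 0.69 to -0.23. Sdf2l1 turned from 0.85 to -0.28 (FDR = 0.375), while Sec61b went from 1.60 to 0.52 (FDR = 0.160) and Ddit3 from 1.65 to 0.83 (FDR = 0.0616). Manf gave 1.39, close to its 1.36 without the correction (FDR = 0.0252). Some differences grew. Pdia4, Dnajb9 and P4hb went from -0.42, -0.32 and -0.34 to -0.82, -0.65 and -0.55 (FDR = 0.0374, 0.0396 and 0.0452). Derl2 went from 0.32 to 0.85 (FDR = 0.0423). No member passed the 3-way test, where Ppp1r15b had an FDR of 0.0142 and 2.14% of all genes were called. What sets the trend with length was not tested.

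The calls for Hyou1, Atf6 and Ppp1r15b in HFD+Mino against HFD depended on which sample was left out. All 3 were lost without Control replicate 2, without any 1 of the 3 HFD samples, and without HFD+Mino replicate 1 or 2, with FDRs of up to 0.0454 for Hyou1, 0.0538 for Atf6 and 0.0398 for Ppp1r15b, while their log2 fold changes stayed from -2.48 to -2.14, -1.39 to -1.11 and -1.67 to -1.47 over all 9 omissions. Calls over all genes dropped in the same fits, from 719 to between 29 and 338. Without Control replicate 1, 4 members were called (Sel1l besides these 3, all lower), among 940 of 17821 genes. Without HFD+Mino replicate 3, 11 members were called, among 21.4% of all genes. Of these, 5 were higher (Atf4, Ddit3, Manf, Sdf2l1 and Sec61b) and 6 lower (Atf6, Atf6b, Hyou1, Ppp1r15b, Sel1l and Syvn1). In the same fit 4 were called in HFD+Mino against Control (Ddit3, Manf, Sdf2l1 and Sec61b, all higher), among 6.28% of all genes. Ppp1r15b kept its 3-way call only without Control replicate 3 (FDR = 0.00418) and without HFD+Mino replicate 3 (FDR = 0.00377), and had FDRs from 0.0127 to 0.0695 in the other omissions.

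Deviations of Control and HFD+Mino samples of the same number correlated by 0.121, 0.144 and 0.264, and pairs of different number were not compared. No source names a batch that these samples share. A block for that number in those groups was added after the data were seen, so the pattern and the calls rest on the same counts. With it the members called numbered 5 in the 3-way test, 3 in HFD against Control, 10 in HFD+Mino against HFD and 1 in HFD+Mino against Control. Under this block Hyou1, Atf6 and Ppp1r15b were called both in HFD against Control, where they were higher, and in HFD+Mino against HFD, where they were lower. Sec61b was the member called in HFD+Mino against Control (log2 fold change 1.67, FDR = 0.00651). Of all 17344 genes 13.2%, 6.22%, 25.6% and 3.18% were called in the same 4 tests.

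The other genes of the pathway were taken from a list of 103 genes in the table, of which 102 could be tested. Rnf139, an ER-resident ubiquitin ligase (TRC8), was the only one called. It fell by 1.34 in HFD against Control (SE 0.21, FDR = 0.00449), from 75.6, 74.3 and 64.3 CPM to 27.9, 26.1 and 30.9 CPM, and rose by 1.13 in HFD+Mino against HFD (SE 0.21, FDR = 0.00794) to 50.1, 70.0 and 65.6 CPM. It was also called lower in the 3-way test (FDR = 0.00798). This 1 gene of 102 stands beside 1.74%, 4.15% and 2.13% of all tested genes called in the same 3 tests. No gene among the 22 further folding and glycan-processing enzymes, the 16 translocation genes, the 20 regulators and proteases or the 24 tested further targets of ATF4 and CHOP was called in any test. The median log2 fold change of these targets was -0.25 in HFD against Control and 0.09 in HFD+Mino against HFD, and that of the translocation genes -0.13 and 0.49. For all tested genes it was 0.00 and 0.01. At an FDR under 0.05 in HFD+Mino against HFD, 24 of the 102 were higher and 13 lower, beside 14.6% and 12.9% of all genes. By list these were 5 higher and 3 lower among the folding enzymes, 6 and 4 among the 20 degradation genes, 7 and 1 among the translocation genes, 3 and 4 among the regulators and proteases, and 3 and 1 among the targets of ATF4 and CHOP.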

How the data were processed

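Bulk RNA sequencing of PVN punches from 9 male mice was analysed. Per the paper's methods and the labels, libraries were made with a low-input cDNA amplification kit, and the authors aligned reads to mm10 with HISAT2 and assigned them to genes with featureCounts. Versions, the strand setting and the treatment of reads with several positions are not given in the sources used here. The authors deposited raw gene counts, without normalization. Groups and replicate numbers follow the sample titles. The count table numbers the HFD samples differently.

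Counts were tested with edgeR 4.0.16 in R 4.3.3 (filterByExpr, TMM, quasi-likelihood fit of the groups over all 9 samples, Benjamini-Hochberg over 17344 genes). CPM values use TMM-scaled library sizes, RPKM values divide them by exon length from GENCODE release M21, and SEs come from the test statistic. Per the study's methods each sample is a separate mouse. Reads carry no molecular identifiers, and precision was taken from the spread between mice. Total counts per sample were 17728590 to 42326213. The code was tested on simulated data.

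The members and lists were chosen with earlier results of these data known. Values in every sample were planned for members called in any test and for Hspa5, Xbp1, Atf4 and Ddit3, and for the other pathway genes the called ones were to be named. Further genes were singled out after their values were seen, Avp and Oxt among them. Promoters are from RefSeq (GRCm38.p6).

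Alternatives were DESeq2 1.42.0, RLE size factors, the likelihood ratio test, a stricter filter (mean count from 50 upward) or none, removal of Rn45s and mitochondrial genes, a replicate block, trends on exon length or GC content removed, other thresholds, fits of 6 samples, and each sample left out. Deviations of Control and HFD+Mino samples with the same number correlated by 0.121, 0.144 and 0.264, from the counts alone, since no source names a shared litter, batch or day. For pairs with HFD the values ran from -0.149 to -0.0055. The block in Control and HFD+Mino alone, also with the length trend removed, was added after seeing the data.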

Additional observations from a re-analysis of the deposited data

How the results depend on the processing

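Members called in the 3-way test, HFD against Control, HFD+Mino against HFD and HFD+Mino against Control numbered 1, 0, 3 and 0. Over all 17344 genes the calls in the same tests numbered 369, 302, 719 and 0. The members numbered 5, 3, 10 and 2 with DESeq2, 5, 3, 9 and 1 with the likelihood ratio test, and 5, 3, 12 and 0 at an FDR under 0.05. Calls over all genes rose too, to 2342, 1186, 3878 and 271 with DESeq2 and to 2234, 966, 3314 and 106 with the likelihood ratio test. At an FDR under 0.05 they were 2258, 1001, 4757 and 0. The members numbered 4, 0, 7 and 0 with no filter on low counts, 2, 0, 4 and 0 with a mean count of at least 50, 3, 0, 5 and 0 with a trend on GC content removed, and 0, 0, 1 and 0 with a trend on exon length removed. Over all genes, no filter gave 1299, 481, 1905 and 1 of 25025. A mean count of at least 50 gave 428, 362, 960 and 0 of 14198. Removal of the GC trend gave 659, 504, 1522 and 0 of 17344, and that of the length trend 372, 414, 464 and 0. The replicate block in all groups gave 2, 0, 4 and 0, the block in Control and HFD+Mino alone 5, 3, 10 and 1, and this block with the length trend removed 2, 1, 6 and 0. Those 6 were Derl2, Hyou1, Manf, Pdia4, Ppp1r15b and Sel1l. Over all 17344 genes the block in all groups gave 488, 284, 1369 and 0. The block in Control and HFD+Mino alone gave 2283, 1078, 4441 and 551, and with the length trend removed 1445, 902, 2788 and 0. Fits of only the samples compared gave 1 member in HFD against Control (Atf6), 2 in HFD+Mino against HFD and 0 in HFD+Mino against Control. Over all genes these fits called 617 of 16809, 406 of 16742 and 0 of 16776. With 1 sample left out the counts of members ran from 0 to 5, 0 to 2, 0 to 11 and 0 to 4. Those of all genes ran from 3 to 2396, 59 to 550, 29 to 3815 and 0 to 1120. RLE size factors, no fold threshold and leaving out Rn45s and mitochondrial genes kept all 4 counts of members.

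Signs were followed over the settings for Hspa5, Hyou1, Manf, Atf6, Xbp1, Atf4, Ddit3, Ppp1r15b, Sel1l, Herpud1, Sec61b, Creld2, Ern1 and Edem1 alone. In these members signs turned mostly with the length trend removed, for differences that passed no threshold there. Without the block and then with it in Control and HFD+Mino alone, Hspa5 gave 0.11 and 0.0707 in HFD+Mino against HFD, Atf6 0.0602 and 0.0632 and Herpud1 -0.0176 and -0.0254 in HFD+Mino against Control, and Edem1 -0.0558 and -0.0512 in HFD against Control. Creld2 gave 0.10 and 0.11 in the 3-way distance, 0.0696 and 0.11 in HFD against Control, -0.23 and -0.23 in HFD+Mino against HFD, and -0.16 and -0.11 in HFD+Mino against Control. Ern1 in HFD+Mino against Control gave 0.12 with the replicate block, 0.21 with the block in Control and HFD+Mino alone, 0.0317 with the length trend removed and 0.43 with both. With 1 sample left out, Hspa5 ran from -0.31 to 0.0341 in HFD+Mino against HFD and from -0.14 to 0.20 in HFD+Mino against Control, Hyou1 from -1.01 to 0.00083 and Ern1 from -0.70 to 1.04 in HFD+Mino against Control, and Creld2 from -0.26 to 0.0184 in HFD against Control. Members not followed here also turned with the length trend removed. In HFD+Mino against HFD, for example, Chac1 went from 0.22 to -0.53 and Dnajc3 from -0.26 to 0.11. The cause of these turns was not tested.

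With 3 mice per group, changes near 1.5-fold in low members such as Ern1, Trib3, Atf5 and Derl3 were not detectable at this depth and spread.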
